A study of Mus musculus with 36 samples.

Results

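A pair of cell products grown from the same kind of mouse monocyte was compared: regulatory macrophages (Mreg, 3 arrays) and monocyte-derived dendritic cells (Mo-DC, 3 arrays), chosen by the sample titles, 6 of the 36 arrays of the study. The starting cells of both were bone-marrow monocytes purified by flow cytometry as Ly6C+ Ly6G- CD11b+. Mreg were grown for 6 days with 5 ng/ml M-CSF in 10% human AB serum and 10% FCS (fetal calf serum), while Mo-DC were grown for 6 days with 20 ng/ml GM-CSF and 20 ng/ml IL-4 in 10% FCS alone. Both then received 25 ng/ml IFN-γ for the last 24 h of a culture of 7 days in all, so neither group is an unstimulated control. The growth factors, IL-4 and the human serum differ together between the groups, and their parts cannot be told apart. Strain, sex and age of the mice are not given in the sources used here, and neither is whether the 3 numbered preparations of a group came from separate animals, so the p-values measure the spread between arrays. The other 30 arrays hold sorted monocytes, macrophages under other stimuli and 3 further Mreg cultures.

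M-CSF signals through the receptor Csf1r and keeps monocytes on the macrophage path, whereas GM-CSF signals through Csf2ra and Csf2rb to the kinase JAK2 and the factor STAT5, and with IL-4 it yields cells with dendritic features. IL-4 acts through STAT6 and induces a well-known set of alternative activation genes in mouse myeloid cells. IFN-γ induces MHC class II, guanylate-binding proteins and, in many macrophages, the nitric oxide synthase Nos2. Regulatory macrophages are studied for their suppression of T cell responses to grafts, and dendritic cells are best known for starting T cell responses.

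Levels below are log2 of the processed spot signal minus the 75th percentile of that array, so 0 is the 75th percentile itself, and values near -7 are at background. A gene was called where limma gave an adjusted p below 0.05 (Benjamini-Hochberg). The 6 arrays had 53.1% to 56.4% of probes well above background and no saturated spot, and 3 arrays a group limit the precision. Arrays of 1 group correlated at 0.985 or more across genes, and arrays of different groups at 0.924 to 0.948. No slide held both groups, and the slides of Mreg held Mreg cultures only, so slide and group cannot be told apart. With slide as a random block 7714 genes were called against 7620 without. That block cannot separate a slide effect from this contrast, since no slide links Mreg to Mo-DC. Both scan days held both groups.

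Of 17607 genes tested, 7620 (43.3%) differed. The call was higher in Mreg for 4145 genes (23.5% of those tested) and lower for 3475 (19.7%), and the median difference over all genes was 0.06. The counts of every gene and marker list below are to be read beside these shares. By size the balance turned: 1040 genes (5.91%) were called and at least 2-fold higher in Mreg and 1655 (9.40%) at least 2-fold lower. The groups did not overlap for 9337 genes (53.0%), and 7237 (41.1%) were both called and without overlap. Because the arrays are of bulk RNA, fewer cells of a type and less RNA per cell cannot be told apart in any of these differences. Where none of the 3 arrays of the dimmer group had a gene well above background, its fold is a lower bound ("at least"), computed with the dimmest signal that still counted as well above background on each such array. Where some arrays of a group were above background and others not, the fold is between the measured means, and where setting the others at that dimmest signal (the floor) made it over 1.5 times smaller, that value is given too. Folds of dim genes depend on the background treatment: with normexp background correction, 79 of the 161 called genes chosen for naming had a fold more than 1.5 times smaller and 9 were not called, while 0 changed sign. The "at least" folds are also bounds under the main background treatment only. With normexp the fitted log2 difference of Ccl24 was -10.61, smaller in size than its bound of log2 13.31. That of Il10 was 1.22, below its bound of log2 3.33.

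**Figure D1:**
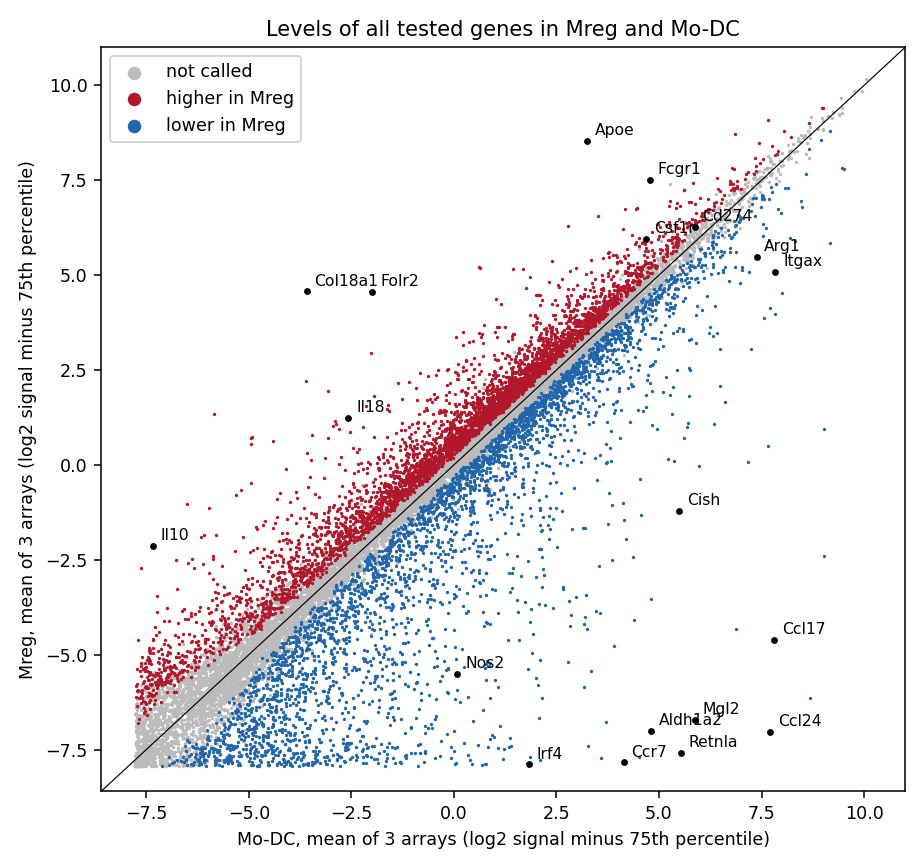
Mean level of each of 17607 genes in Mo-DC (x axis) and Mreg (y axis), in log2 signal minus the array's 75th percentile, with 4145 genes called higher in Mreg in red, 3475 called lower in blue and the others in grey. The farthest points lie below the diagonal at right, with Ccl17, Ccl24, Retnla and Mgl2 bright in Mo-DC and near background in Mreg, while Apoe, Col18a1 and Folr2 lie above it.

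Of the named genes well above background on all 6 arrays, Col18a1, Folr2, Cadm1 and Apoe, in that order, stood highest in Mreg over Mo-DC. Col18a1, which encodes the collagen from which endostatin is cut, read 4.80, 4.18 and 4.73 on the Mreg arrays and -3.60, -3.15 and -4.03 on the Mo-DC arrays, a 287-fold difference (log2 8.16, SE 0.37, adjusted p = 1.74e-15). Folr2, a folate receptor of macrophages, read 4.57, 4.22 and 4.89 against -2.10, -2.63 and -1.23 and was 93.4-fold higher in Mreg. The adhesion molecule Cadm1 was 56.0-fold higher. Apoe, the cholesterol carrier apolipoprotein E, read 8.86, 8.07 and 8.66 in Mreg, among the brightest signals on the array, against 2.77, 2.49 and 4.49 in Mo-DC, 38.9-fold apart, and Mo-DC array 3 stood above the others (log2 5.90 without it, 5.28 with it). All 4 genes separated the groups with no overlap. The phosphoinositide phosphatase Inpp5j followed at 33-fold, Angptl2 at 32.5-fold (log2 5.02, 4.42 as the mean of its 3 probes), the TGF-beta pseudoreceptor Bambi at 31.0-fold and the lipase inhibitor Angptl4 at 24.4-fold. For Hmga2, a chromatin protein of growing cells, Mreg read 1.38, 1.03 and 1.65 while no Mo-DC array was well above background, a difference of at least 112-fold (fitted log2 7.21, 6.36 as the mean of 2 probes). Prl2c5, a prolactin-family gene with close copies that its probe may not tell apart, was at least 21.7-fold higher in Mreg.

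In the other direction the differences were larger. Ccl24, a chemokine that attracts eosinophils, read 7.95, 7.71 and 7.45 on the Mo-DC arrays and was not well above background in Mreg, at least 10149-fold apart. Aldh1a2, which makes retinoic acid, read 5.00, 4.93 and 4.49 in Mo-DC against background in Mreg, at least 1362-fold. Olr1, a receptor for oxidised lipoprotein, was at least 1106-fold lower in Mreg. Ccr7, which guides dendritic cells to lymph nodes, read 3.37, 4.80 and 4.26 in Mo-DC and was at least 859-fold lower in Mreg. Every array of Mo-DC was bright for these 4 genes and every array of Mreg was at background. Among genes measured on all 6 arrays, Plet1 was 2347-fold lower in Mreg (log2 -11.20, -10.61 as the mean of 2 probes), Ccdc80 412-fold (log2 -8.69, and -9.28 without Mo-DC 3), and Inhba, the subunit of activin A, 322-fold (-8.33, and -9.01 without Mreg 2). Sema7a was 190.0-fold lower, with Mreg array 1 at -2.53 and the others at -5.18 and -5.28 (log2 -7.57, and -8.47 without Mreg 1).

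Markers of the named cell types went with the labels in the main, with exceptions on both sides. Of 19 macrophage markers tested, 8 were higher in Mreg, 0 were lower and 11 were not called, with a median difference of 0.89 against 0.06 over all genes. The phagocytic receptor Timd4 (-0.60) and the lysozyme gene Lyz2 (-0.17) were among the genes not called. The high-affinity Fc receptor Fcgr1 read 7.80, 6.95 and 7.74 in Mreg and 5.10, 4.65 and 4.58 in Mo-DC, 6.58-fold apart. Csf1r was 2.41-fold higher in Mreg, Adgre1, which encodes F4/80, 3.11-fold, the sialoadhesin Siglec1 4.63-fold and Cd68 2.21-fold. Several of these genes were also strong in Mo-DC, where Csf1r read 4.63 to 4.84 and Adgre1 averaged 5.61 ± 0.44 (SD, n = 3). The complement gene C1qc, 3.21-fold higher in Mreg (adjusted p = 0.029), lost its call without Mreg 1 or 3 or without Mo-DC 1 or 2 (log2 1.41 to 1.68, adjusted p 0.062 to 0.11). With the probes of each gene averaged, 1 macrophage marker was called lower.

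Of 25 dendritic cell markers tested, 18 were lower in Mreg, 2 were higher and 5 were not called, with a median of -3.18 (-3.16 with the genes below background in 1 group set at their bound). Irf4, a transcription factor of IL-4-exposed and dendritic cells, read 2.04, 2.13 and 1.28 in Mo-DC and was at background in Mreg, at least 172-fold lower. Zbtb46, the factor that marks the conventional dendritic lineage, was dim in both groups but 8.93-fold lower in Mreg, at -5.08, -4.98 and -4.88 against -1.86, -1.41 and -2.19 (log2 -3.16, -4.38 as the mean of 4 probes). Itgax, which encodes CD11c, was 6.77-fold lower in Mreg, although at 4.85, 5.84 and 4.54 it was far above background there too. The actin bundler Fscn1 was 21.8-fold, Batf3 9.08-fold and Cd83 8.99-fold lower. Flt3, the receptor of the growth factor of conventional dendritic cells, was near background in both and its call (log2 -0.85, adjusted p = 0.048) was lost without Mreg 1 or 2 or Mo-DC 2 or 3 (log2 -0.66 to -0.77). It was also lost with quantile normalisation (adjusted p = 0.18), in the authors' series table (0.17), with normexp (0.45), with no filter on dim probes (0.073) and with only the 6 arrays fitted (0.072). The type 1 dendritic markers Xcr1 and Clec9a were not called (0.16 and -0.89). The 2 markers higher in Mreg were Cadm1 and Clec10a (3.32-fold). Clec10a is the near copy of Mgl2, which was at least 2868-fold lower in Mreg, so the paired genes went in opposite directions.

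**Figure D2:**
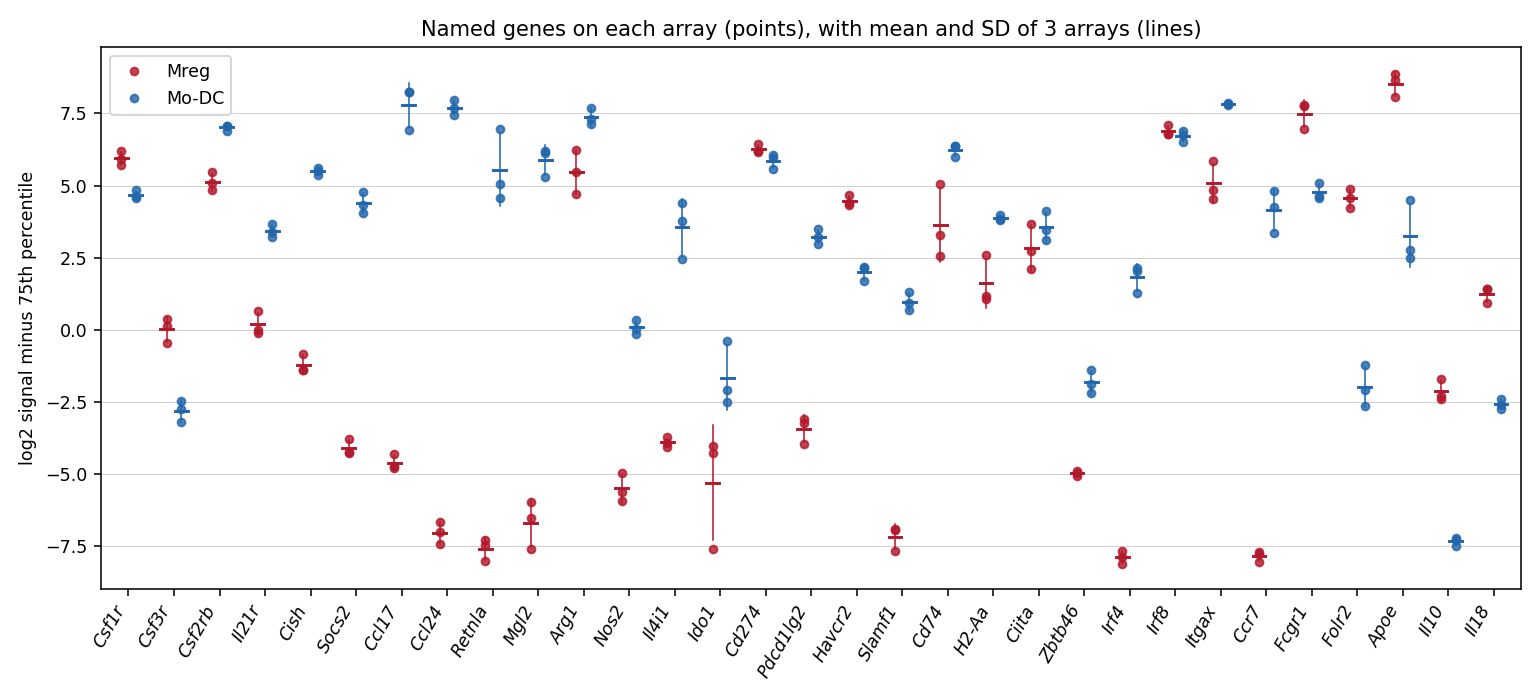
Levels of selected genes on each of the 3 Mreg arrays (red) and 3 Mo-DC arrays (blue), in log2 signal minus the array's 75th percentile; horizontal lines are group means and vertical lines SDs. Irf8, Ciita and Cd274 lie close together in the 2 groups, while Ccl24, Retnla, Mgl2, Irf4 and Ccr7 lie between -8.12 and -5.98 in Mreg and between 1.28 and 7.95 in Mo-DC.

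The receptors for the growth factors in the media were expressed in both products. Of 19 growth factor and cytokine receptors, 5 were higher in Mreg, 11 lower and 3 not called (median -0.75). The shared GM-CSF receptor chain Csf2rb read 5.07, 5.48 and 4.85 in Mreg and 7.07, 7.07 and 6.91 in Mo-DC, 3.69-fold apart, and the chain Csf2ra was 1.71-fold lower in Mreg. The IL-4 receptor chains were expressed in both, with Il4ra at 4.66 ± 0.37 in Mreg and 5.41 ± 0.15 in Mo-DC (SD, n = 3), 1.68-fold apart, Il13ra1 1.80-fold lower in Mreg and the shared chain Il2rg 3.70-fold lower. Il21r, the receptor of IL-21, was 9.48-fold lower in Mreg. The G-CSF receptor Csf3r was 7.10-fold and Il6ra 2.29-fold higher in Mreg. Both chains of the IFN-γ receptor were called, in opposite directions: Ifngr1 was 1.6-fold higher in Mreg and Ifngr2 1.68-fold lower.

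Of 20 STAT, SOCS and JAK genes, 2 were higher in Mreg, 9 lower and 9 not called (median -0.23). Cish and Socs2, feedback inhibitors that STAT5 induces, were the farthest apart. Both are also counted in the IL-4 list below. Macrophages grown with M-CSF and given IL-4 for the last 24 h, without IFN-γ (M2a), averaged 2.45 for Cish and 0.60 for Socs2. In unstimulated M0 macrophages Cish averaged -4.19 and Socs2 -4.54. Which signal set their levels in Mo-DC was not tested. Cish read -0.83, -1.41 and -1.38 in Mreg and 5.52, 5.60 and 5.37 in Mo-DC, 104-fold apart (log2 -6.71, SE 0.36), and Socs2 was 357-fold lower in Mreg (log2 -8.48, and -7.61 as the mean of its 2 probes). Socs1, an inhibitor induced by IFN-γ and IL-4, was also lower in Mreg (-1.88). Stat5a (-1.22) and Jak2 (-1.31) were lower in Mreg, while Stat6 and Stat3 were not called at 0.24 and 0.02. For Stat4, lower in Mreg at -2.0, Mreg 2 was the lowest array, and the difference was -1.41 without it.

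Of 33 genes tested that are known to answer IL-4 through STAT6, 27 were lower in Mreg (81.8%, against 19.7% of all genes), 1 was higher and 5 were not called, with a median of -4.27 (-3.92 with bounds). IL-4 was in the medium of one group only, and the list had been chosen with that known. Ccl17, a chemokine of dendritic cells for CCR4-bearing T cells, read -4.80, -4.29 and -4.72 in Mreg and 8.25, 8.24 and 6.93 in Mo-DC, a 5438-fold difference (log2 -12.41, SE 0.67, adjusted p = 4.97e-14). Retnla, a secreted marker of alternative activation, was at background on all 3 Mreg arrays and read 5.07, 4.58 and 6.97 in Mo-DC, at least 2268-fold apart; the fitted log2 difference was -13.14, and -12.42 without Mo-DC 3. The groups were far apart for both, and Mo-DC array 3 was lowest for Ccl17 and highest for Retnla. The amino acid oxidase Il4i1 was 176-fold lower in Mreg, the angiogenic receptor Flt1 15.1-fold and Ccl22 19.2-fold. The mannose receptor Mrc1 was 6.12-fold lower in Mreg. Arg1, which breaks down arginine, differed only 3.75-fold, since both products were bright for it: 4.70, 6.24 and 5.47 in Mreg and 7.30, 7.12 and 7.71 in Mo-DC. Members not called were Myc (-0.44), Itgb3 (-0.40), Cd209a (-0.19), Tfrc (-0.10) and F13a1 (0.95).

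STAT6 is known to favour the spaced palindrome TTCNNNNGAA, which reads the same on both strands. RefSeq promoters (build GRCm38.p6) were in the table for 19 of the 27 genes lower in Mreg. In the 250 bases before the start, 4 of the 19 (21.1%) held the letters, against 6.76% of 27025 genes with a promoter. The form with 1 fewer spacer base, TTCNNNGAA, was in 5 (26.3%) against 8.13%. Among all genes tested here the shares were 5.92% and 7.17%. Among all tested members of the list, called or not, they were 18.2% and 22.7%. The list is of known STAT6 targets, so these shares cannot speak to the contrast of Mreg and Mo-DC. The 4 promoters shown are those that held TTCNNNNGAA, so they were picked by the match. The differences of their genes ran from large (Retnla) to small (Clec7a, log2 -2.43). A match is only a match of letters, not a shown site. Each line gives 90 bases upstream of the start, 5′ to 3′ on the strand of the gene, with the match in capitals.
Ccl17, chr8:94810259-94810348, plus strand: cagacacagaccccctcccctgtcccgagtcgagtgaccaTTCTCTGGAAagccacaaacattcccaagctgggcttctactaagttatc
Retnla, chr16:48842424-48842513, plus strand: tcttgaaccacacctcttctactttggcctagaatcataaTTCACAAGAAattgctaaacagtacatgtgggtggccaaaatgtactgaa
Pdcd1lg2, chr19:29410797-29410886, plus strand: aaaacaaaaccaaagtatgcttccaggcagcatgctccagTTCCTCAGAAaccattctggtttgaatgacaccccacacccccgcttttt
Clec7a, chr6:129472861-129472950, minus strand: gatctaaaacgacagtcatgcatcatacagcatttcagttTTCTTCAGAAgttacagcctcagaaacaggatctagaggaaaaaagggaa
The match lies 145 to 154 bases before the start in Ccl17, 136 to 145 in Retnla, 73 to 82 in Pdcd1lg2 and, from its downstream RefSeq start, 122 to 131 in Clec7a.

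The eosinophil-type ribonucleases and chitinase-like genes went the same way: 12 of 13 were lower in Mreg, 1 was higher and 0 were not called (median -4.87). The chitinase-like Chil3 and its near copy Chil4, whose probes may read each other, were among the brightest genes of Mo-DC, with Chil3 at 8.94, 9.02 and 9.09. In Mreg, array 2 stood apart for both, with Chil3 at 3.95 against -0.55 and -0.61, and Chil4 at 0.72 against -3.98 and -3.92. The Chil3 difference was 272-fold (log2 -8.09, and -9.60 without Mreg 2, -7.35 without Mreg 1 and -7.32 without Mreg 3), and that of Chil4 was 2733-fold (log2 -11.42, and -12.97, -10.62 and -10.66 without Mreg 2, 1 and 3). Rnase2a, an eosinophil-associated ribonuclease with several near copies, read 0.34, 0.76 and 0.37 in Mreg and 7.82, 7.74 and 7.43 in Mo-DC, 144-fold apart. The exception was the true chitinase Chit1, 2.14-fold higher in Mreg.

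**Figure D3:**
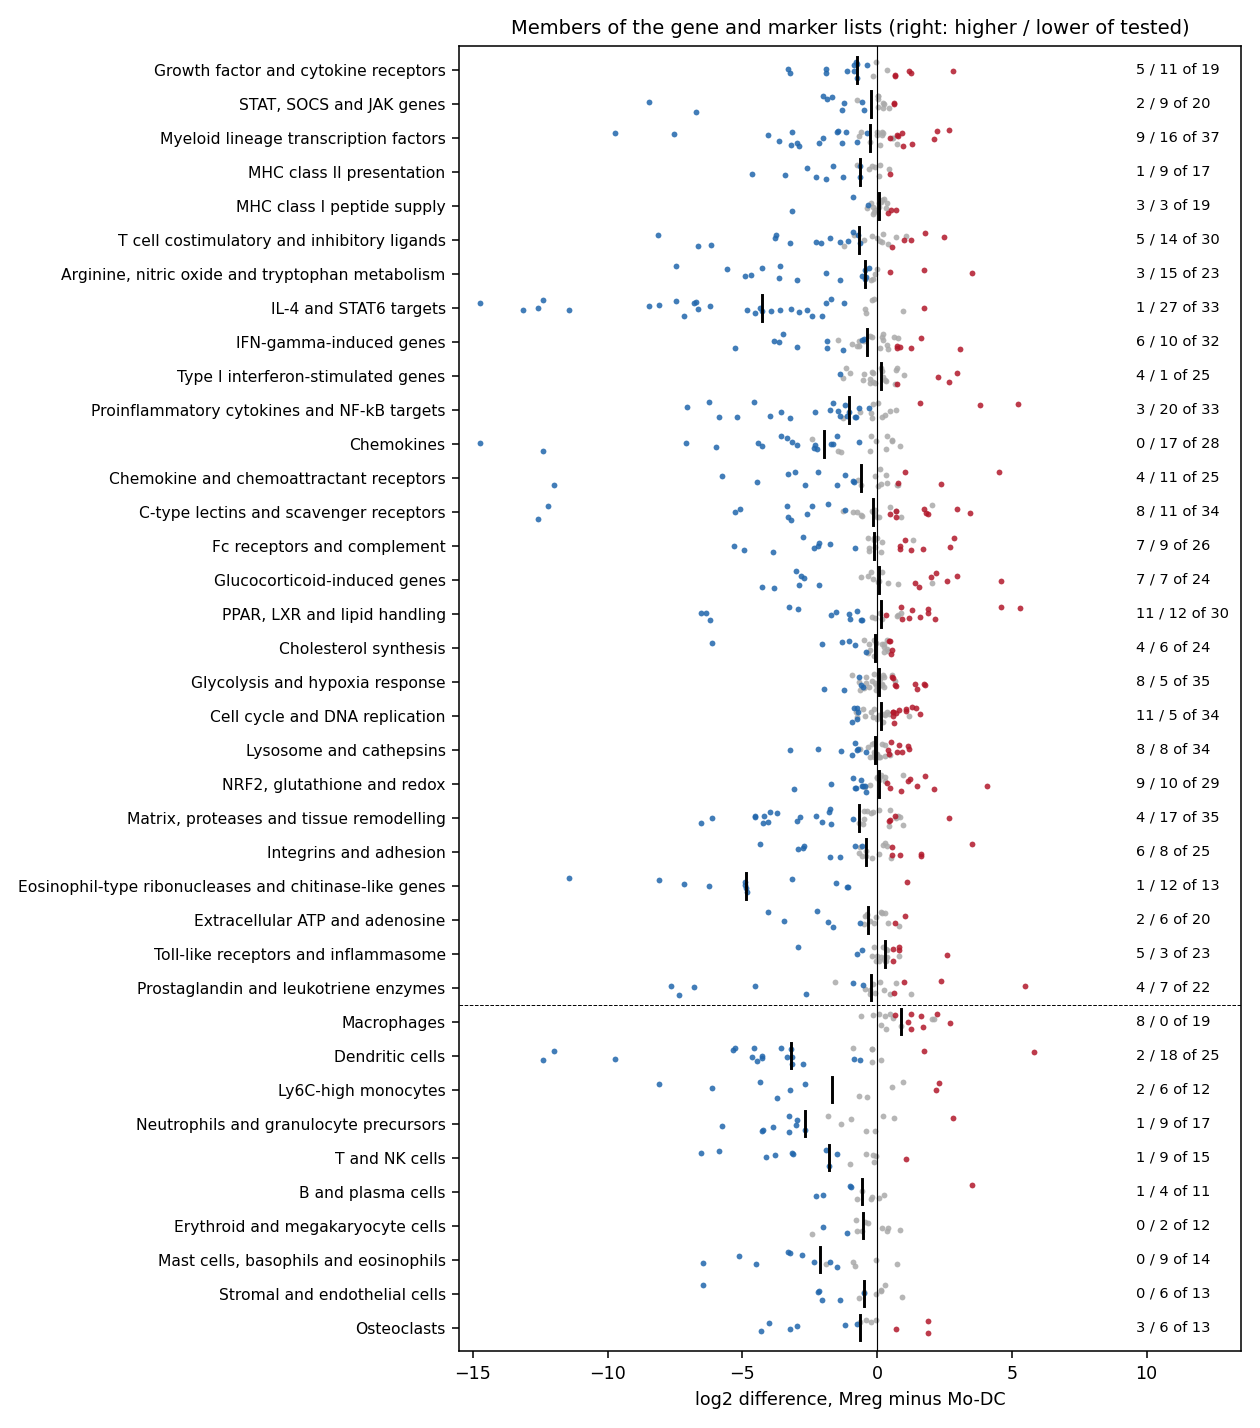
Log2 difference of Mreg minus Mo-DC for every tested member of 28 gene lists (above the dashed line) and 10 marker lists (below it); points are genes, red called higher in Mreg, blue called lower, grey not called, and black bars are medians. The ribonuclease and chitinase-like list (1 of 13 higher, 12 lower) and the IL-4 list (1 of 33 higher, 27 lower) lie farthest to the left, and the macrophage markers (8 of 19 higher, 0 lower) lie to the right of 0.

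Genes that IFN-γ induces, the stimulus both products received, were called in both directions. Of 32 tested, 6 were higher in Mreg, 10 lower and 16 not called (median -0.37). That is 18.8% higher and 31.2% lower, beside 23.5% and 19.7% of all genes. Irf1, the GTPases Igtp (3.13-fold) and Irgm2 (2.38-fold) and the surface protein Ly6a (8.46-fold; log2 3.08, and 3.76 without Mreg 2 or 3.74 without Mo-DC 1) were higher in Mreg. Acod1, which makes itaconate, was 38.8-fold lower in Mreg, at 1.56, 0.93 and 0.72 against 6.43, 6.52 and 6.09. The guanylate-binding protein gene Gbp2b, which has close copies, was 14.3-fold lower (log2 -3.84, -4.69 without Mreg 1 and -2.98 without Mreg 2), and the chemokine Cxcl9 7.89-fold lower. Irf8, a factor of both macrophages and dendritic cells, was not called (7.09, 6.80 and 6.80 against 6.75, 6.50 and 6.89). Of 25 type I interferon-stimulated genes, 4 were higher in Mreg, 1 lower and 20 not called (median 0.13). Oas3 (7.88-fold by its brightest probe; log2 2.98, and 1.79 as the mean of 2 probes), Irf7 (6.31-fold) and Ifit3 (4.81-fold) were higher in Mreg, while Isg15 (0.33) and Rsad2 (-0.15) were not called. The 1 lower gene, Usp18 at -1.37, lost its call without Mreg 2 (-1.21, adjusted p = 0.054) or without Mo-DC 1 (-1.22, adjusted p = 0.056), leaving 0 lower. There were 3 lower without Mreg 1, and 2 with the replicate number as a block.

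Of 17 genes of MHC class II presentation, 9 were lower in Mreg (52.9%, against 19.7% of all genes), 1 higher and 7 not called (median -0.64); the count of higher genes was 2 with the replicate number as a block and without Mo-DC 3. The invariant chain Cd74 read 5.04, 2.55 and 3.29 in Mreg and 6.37, 6.38 and 5.98 in Mo-DC, 6.15-fold apart, with Mreg 1 nearest to Mo-DC (log2 -2.62, and -3.33 without Mreg 1). The class II chain gene H2-Aa showed the same order of arrays, at 2.58, 1.17 and 1.07 against 3.85, 3.80 and 3.98. H2-Ab1 was 3.12-fold and H2-Eb1 3.69-fold lower in Mreg, and H2-Oa, a modifier of peptide loading, 24.9-fold lower, with 2 of 3 Mreg arrays above background. Ciita, the master activator of these genes, was not called (3.66, 2.10 and 2.73 against 3.47, 3.10 and 4.14, adjusted p = 0.39). Of 19 genes of class I peptide supply, 3 were higher, 3 lower and 13 not called (median 0.06), with 1 lower without Mreg 2; the 15.8% called each way lies beside 23.5% higher and 19.7% lower of all genes. B2m (-0.11), H2-D1 (-0.14) and Tap1 (0.38) were not called, and the lipid-presenting Cd1d1 was 9.01-fold lower in Mreg.

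A list of T cell costimulatory and inhibitory genes split by gene. It holds ligands by which myeloid cells steer T cells, and also some receptors and other genes. Of 30 tested, 5 were higher in Mreg, 14 lower and 11 not called (median -0.67). The PD-1 ligand Cd274 was bright and nearly level, at 6.19, 6.45 and 6.17 in Mreg and 5.97, 5.59 and 6.05 in Mo-DC; its difference of 0.40 missed the threshold (adjusted p = 0.073) and passed it with quantile normalisation (0.43, adjusted p = 0.044) and in the authors' series table (0.43, adjusted p = 0.043). The other PD-1 ligand, Pdcd1lg2, read -3.08, -3.23 and -3.96 in Mreg and 3.22, 2.99 and 3.48 in Mo-DC, 101-fold apart. The self-ligand receptor Slamf1 was at least 95.3-fold lower in Mreg (fitted log2 -8.14, -6.38 as the mean of 2 probes). The OX40 ligand Tnfsf4 was 72.0-fold lower, with 1 Mreg array above background (25.0-fold with the floor; log2 -6.17, -7.10 without Mreg 3 and -6.81 without Mo-DC 3). Of members known for costimulation, Cd86 was 4.78-fold, Cd40 2.63-fold and Cd80 2.14-fold lower in Mreg, and the 4-1BB ligand Tnfsf9 was 3.46-fold higher. Also higher in Mreg were Havcr2, which encodes TIM-3, at 5.54-fold (4.68, 4.34 and 4.39 against 2.18, 2.15 and 1.68), and Vsir, which encodes the inhibitory protein VISTA, at 2.39-fold.

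The title of the study concerns inducible nitric oxide synthase. By this array Nos2 read -4.95, -5.61 and -5.94 in Mreg, where 1 of 3 arrays was well above background, and 0.36, -0.13 and 0.03 in Mo-DC, 48.0-fold apart (log2 -5.59, SE 0.47). All 3 Mo-DC arrays were well above background for Nos2, which has 1 probe here. In arginine, nitric oxide and tryptophan metabolism, 3 of 23 genes were higher in Mreg, 15 lower and 5 not called (median -0.47). The arginine-recycling enzyme Ass1 was 25.8-fold and the arginine transporter Slc7a2 12.3-fold lower in Mreg. Of the tryptophan enzymes, Kynu was 29.7-fold lower (2 of 3 Mreg arrays above background) and Ido1 12.5-fold lower (also 2 of 3, and 7.76-fold with the floor). Ido1 varied among arrays, at -4.04, -7.60 and -4.27 in Mreg and -0.38, -2.51 and -2.10 in Mo-DC (log2 -3.64, -4.27 without Mreg 1, -2.49 without Mreg 2 and -3.0 without Mo-DC 1). Ddah2, which degrades natural inhibitors of nitric oxide synthases, was 11.6-fold and the spermine synthase Sms 3.36-fold higher in Mreg (log2 1.75, and 3.03 as the mean of 3 probes).

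Among proinflammatory cytokines and NF-κB targets, 3 of 33 were higher in Mreg, 20 lower and 10 not called (median -1.05). Il10, an inhibitory cytokine, was detected in Mreg only of the pair, at -2.30, -2.38 and -1.70, with no Mo-DC array above background, at least 10.1-fold apart. Il18 was 14.2-fold higher in Mreg (1.41, 0.92 and 1.41 against -2.74, -2.40 and -2.59). The third, the inhibitor Nfkbiz (1.6), lost its call with normexp background correction (0.62, adjusted p = 0.074) and with only the 6 arrays fitted (adjusted p = 0.077). Csf1, the gene of M-CSF itself, read -3.73, -4.14 and -4.89 in Mreg and 2.82, 3.24 and 2.40 in Mo-DC, 135-fold apart. Il6 was at least 17.3-fold lower in Mreg. Il1a (58.1-fold, 32.9-fold with the floor; log2 -5.86, -5.06 without Mreg 1 and -6.71 without Mreg 2) and Il1b (36.8-fold; -5.20, -6.11 without Mo-DC 3) were lower, each with 1 Mreg array above background. Il12b was at least 2.70-fold lower (fitted log2 -3.58, -4.27 without Mo-DC 1), and with normexp it was not called (-0.81, adjusted p = 0.28). Tnf was not called (0.76, -0.18 and 0.56 against 1.31, 1.62 and 0.16, adjusted p = 0.12) but was lower in Mreg without Mo-DC 3 (-1.09, adjusted p = 0.011).

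Of 28 chemokines, 17 were lower in Mreg, 0 were higher and 11 were not called (median -1.97); without Mo-DC 3, 1 was called higher. Besides Ccl17, Ccl24 and Ccl22, Ccl5 was 135-fold lower in Mreg (0.67, 0.65 and -1.05 against 6.88, 7.71 and 6.90), Ccl3 63.6-fold and Ccl4 21.2-fold. The monocyte attractant Ccl2 was 4.66-fold lower yet bright in both, at 5.98 ± 0.19 in Mreg and 8.20 ± 0.30 in Mo-DC (SD, n = 3). Cxcl10 was not called (-1.43), with an SD of 2.37 over the Mreg arrays. Among 25 chemoattractant receptors, 4 were higher in Mreg, 11 lower and 10 not called (median -0.61). The complement receptor C5ar1 was 23-fold higher in Mreg (-0.98, -0.88 and -0.16 against -4.32, -5.13 and -6.15), with 2 Mo-DC arrays above background, and Cxcr3 at least 4.70-fold higher, a call lost with normexp (0.48, adjusted p = 0.13). The leukotriene B4 receptor Ltb4r1 was 9.81-fold and the monocyte receptor Ccr2 6.39-fold lower in Mreg.

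Of 34 C-type lectins and scavenger receptors, 8 were higher in Mreg, 11 lower and 15 not called (median -0.16). That is 23.5% higher and 32.4% lower, beside 23.5% and 19.7% of all genes. The scavenger receptor Stab1 was 7.71-fold higher (log2 2.95, 3.60 as the mean of 2 probes) and the lectin Clec12a 3.74-fold; Clec4a1 was at least 4.52-fold higher but not called with normexp (0.46, adjusted p = 0.28). The fungal receptors Clec4n (dectin-2) and Clec7a (dectin-1) were lower in Mreg, 38.3-fold and at log2 -2.43, and so were the receptor kinases Tyro3 (-5.11, and -4.45 with the floor) and Axl (-1.81) that bind dying cells. The third of those kinases, Mertk, was not called (0.07). Of 26 Fc receptor and complement genes, 7 were higher (26.9%), 9 lower (34.6%) and 10 not called (median -0.10). The higher count was 3 without Mreg 1 and 4 without Mo-DC 2. Fcgr1 was higher as given above and the inhibitory Fcgr2b 39.5-fold lower in Mreg, where array 2 was highest (-2.27, -0.18 and -2.19 against 3.56, 3.64 and 4.06; log2 -5.30, -5.99 without Mreg 2). Complement C3 (31.0-fold) and factor B, Cfb (14.7-fold), were lower in Mreg.

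Lipid genes were called in both directions. Of 30 PPAR, LXR and lipid handling genes, 11 were higher in Mreg (36.7%), 12 lower (40%) and 7 not called (median 0.14). Beside Apoe and Angptl4, Apoc2 was 4.48-fold and the nuclear receptor gene Pparg (1.31) higher. The desaturase Scd1 was at least 29.9-fold lower in Mreg, the fatty acid synthase Fasn 2.87-fold, the cholesterol exporter Abca1 7.70-fold and the carbonic anhydrase Car4 at least 23.6-fold (fitted log2 -6.54, -7.53 without Mo-DC 3). Cholesterol 25-hydroxylase, Ch25h, was 73.1-fold lower with a wide Mreg spread of 0.65, -6.14 and -2.50 (2 of 3 arrays above background; log2 -6.19, -7.85 without Mreg 1, -4.45 without Mreg 2 and -6.86 without Mo-DC 3). In cholesterol synthesis, 4 of 24 genes were higher, 6 lower and 14 not called (median -0.08), with 2 higher without Mo-DC 2. Mvd, an enzyme of the mevalonate pathway, was 4.16-fold lower in Mreg.

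Of 24 glucocorticoid-induced genes, 7 were higher, 7 lower and 10 not called (median 0.06). That is 29.2% each way, beside 23.5% higher and 19.7% lower of all genes. Tsc22d3, which encodes GILZ, was 4.53-fold, the glutamine synthetase Glul 5.98-fold and the phosphatase Dusp1 3.97-fold higher in Mreg. Metallothionein Mt2 was 14.2-fold and the kinase Sgk1 7.42-fold lower. Saa3 (-2.83) was not called without Mreg 3 (-1.98, adjusted p = 0.061) and stood at -3.61 without Mreg 2. In redox defence, 9 of 29 NRF2 and glutathione genes were higher, 10 lower and 10 not called (median 0.07): the glutathione transferase Gsta3 was 16.9-fold and the reductase Gsr 4.28-fold higher, the cystine transporter Slc7a11 8.47-fold and Nqo1 3.25-fold lower, and Hmox1 (0.09) was not called.

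Of 34 cell cycle and replication genes, 11 were higher in Mreg (32.4%, against 23.5% of all genes), 5 lower and 18 not called (median 0.14). The replication clamp Pcna was 3.00-fold (7.43, 7.44 and 7.40 against 5.77, 5.78 and 5.95), the licensing factor Cdt1 2.72-fold and Mcm2 2.09-fold higher in Mreg, while Mki67 (0.35), Top2a (0.29) and Cdk1 (-0.46) were not called and Cdc20 (-0.92) and Aurka (-0.74) were lower. The higher count was 5 without Mreg 1, 7 without Mo-DC 1 and 5 without Mo-DC 3, and the lower count was 2 without Mreg 2, Mreg 3 or Mo-DC 2 and 8 without Mo-DC 3. Of 35 glycolysis and hypoxia genes, 8 were higher, 5 lower and 22 not called (median 0.05); 9 were lower with the replicate number as a block, and 3 without Mreg 3 or Mo-DC 1. The oxygen-sensitive factor Hif1a was 3.92-fold and hexokinase Hk2 2.35-fold lower in Mreg, while Vegfa (2.81-fold) and the prolyl hydroxylase Egln3 (3.41-fold) were higher. Of 34 lysosomal genes, 8 were higher, 8 lower and 18 not called (median -0.07), so 23.5% each way beside 23.5% and 19.7% of all genes. Npc1 was 2.24-fold higher and the collagen-cutting cathepsin Ctsk 9.49-fold lower (log2 -3.25, -3.99 without Mreg 2).

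Matrix and protease genes were mostly lower in Mreg where called: 17 of 35 lower, 4 higher and 14 not called (median -0.66, -0.53 with bounds), with 2 higher without Mreg 3 or Mo-DC 1. Fibronectin, Fn1, was 70.3-fold lower, with Mreg 2 nearest to Mo-DC (-3.34, -0.28 and -2.20 against 3.88, 4.29 and 4.41; log2 -6.14, -5.44 without Mreg 1, -6.96 without Mreg 2 and -5.33 as the mean of 4 probes). The protease inhibitor Timp1 was 23.2-fold and the elastase Mmp12 18.2-fold lower. Of 25 integrin and adhesion genes, 6 were higher (24%), 8 lower (32%) and 11 not called (median -0.40). Itgb7 read 6.30, 6.29 and 6.28 in Mreg and 3.63, 2.84 and 1.91 in Mo-DC, 11.3-fold apart, and E-cadherin, Cdh1, was 20.2-fold lower in Mreg (log2 -4.33, -5.00 without Mreg 2).

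Enzymes of lipid mediators showed large differences for a few genes. Of 22 prostaglandin and leukotriene genes, 4 were higher in Mreg, 7 lower and 11 not called (median -0.22). Alox5, which starts leukotriene synthesis, read -3.94, -3.87 and -4.77 in Mreg and 3.50, 3.65 and 2.36 in Mo-DC, 165-fold apart. The cyclooxygenase Ptgs1 was 111-fold lower in Mreg and the prostacyclin synthase Ptgis at least 46.6-fold, while the inducible cyclooxygenase Ptgs2 was not called (0.47). The prostaglandin D synthase Hpgds was 45.1-fold higher in Mreg, with 2 Mo-DC arrays above background, and the prostaglandin E receptor Ptger2 5.13-fold higher. For extracellular ATP and adenosine, 2 of 20 genes were higher, 6 lower and 12 not called (median -0.33); the higher count was 1 without Mreg 1, Mreg 3 or Mo-DC 2 and 4 without Mreg 2. P2ry12 (4.69-fold, 1 Mreg array above background) and the ectonucleotidase Nt5e (at least 3.57-fold) were lower in Mreg, and both missed the call with normexp (-0.74 with adjusted p = 0.085, and -0.87 with 0.060). Of 23 Toll-like receptor and inflammasome genes, 5 were higher, 3 lower and 15 not called (median 0.27). Tlr2 was 7.62-fold lower in Mreg (log2 -2.93, -3.65 without Mo-DC 3), and Tlr4 (0.32) was not called.

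Lineage factors beyond those named were mixed, 9 of 37 higher in Mreg, 16 lower and 12 not called (median -0.25). Bcl6, a repressor, was 4.61-fold and the orphan nuclear receptor Nr4a1 4.29-fold higher, Gfi1 at least 49.0-fold and Bhlhe40 12.5-fold lower, and Spi1 (0.12) was not called.

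Markers of other cells also moved with the groups, and their part in the differences above was not tested. Of 14 mast cell, basophil and eosinophil markers, 9 were lower in Mreg, 0 were higher and 5 were not called, and the summed linear level, in units of the array's 75th percentile, was 0.225 to 0.427 in Mreg against 7.80 to 10.47 in Mo-DC. Siglecf, which myeloid cells can also make, carried most of it (88.2-fold lower), and the mast cell protease Cpa3 was at least 7.55-fold lower (fitted log2 -5.11, -5.74 without Mo-DC 2 and -4.38 without Mo-DC 3). No array of Mreg was above background for 10 of the 14, nor any Mo-DC array for 4. Of 15 T and NK cell markers, 9 were lower, 1 higher and 5 not called; the summed level was 29.9 to 58.9 in Mreg and 17.1 to 30.6 in Mo-DC. That sum is led by Il7r (2.10-fold higher in Mreg, log2 1.07), the 1 higher marker, which was not called without Mreg 2 (0.80, adjusted p = 0.055) or with only the 6 arrays and the replicate block (adjusted p = 0.079) and was 1.68 as the mean of its probes. Gzmb was at least 21.5-fold lower in Mreg (fitted log2 -6.55, -7.29 without Mo-DC 2 and -5.78 without Mo-DC 3), Gzma at least 15.0-fold (-5.85, -6.76 and -5.12 likewise), and the defining Cd3d at least 2.76-fold. On the arrays of sorted monocytes, the kind of cell both cultures started from, Gzmb read 0.16 ± 0.73, Gzma -0.52 ± 0.62 and Cpa3 1.49 ± 0.19 (SD, n = 3), all above their Mo-DC means of -1.18, -1.70 and -2.69. Cd8a, at least 4.51-fold lower in Mreg, was not called with normexp (-1.02, adjusted p = 0.054).

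Of 17 neutrophil and granulocyte precursor markers, 9 were lower in Mreg, 1 (Csf3r) higher and 7 not called, with sums of 7.01 to 18.9 in Mreg and 10.4 to 28.1 in Mo-DC. S100a9 (-3.86) was not called without Mo-DC 1 (-3.03, adjusted p = 0.055). Of 12 Ly6C-high monocyte markers, 6 were lower, 2 higher and 4 not called (sums 234 to 461 against 688 to 759). Most of the Mo-DC sum is Chil3, at log2 9.02 against 0.93 in Mreg, so the sums do not rank the other markers. The B cell list had 4 of 11 lower, 1 higher and 6 not called (sums 17.4 to 24.9 against 48.8 to 69.1). Its defining Ms4a1 was not called (-0.18), and the 1 higher member, against the direction of the sums, was Cd79b (log2 3.50, 2.00 with normexp). Stromal and endothelial markers had 6 of 13 lower, 0 higher and 7 not called (21.3 to 27.0 against 34.9 to 42.7), and Kdr was not called with normexp (-0.71, adjusted p = 0.12). Osteoclast markers had 6 of 13 lower, 3 higher and 4 not called (94.1 to 130.3 against 213 to 306): the fusion gene Dcstamp was 16.1-fold lower in Mreg and the RANK receptor gene Tnfrsf11a 3.66-fold higher. Erythroid and megakaryocyte markers had 2 of 12 lower, 0 higher and 10 not called (54.2 to 71.6 against 26.1 to 50.7). These sums, higher in Mreg, ran against the calls and do not rank the single markers. The count lower was 1 without Mreg 3 and 4 without Mo-DC 1. Without Mo-DC 3, 1 was lower and 1 higher.

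Set among all 12 groups, Mo-DC was the more extreme of the pair. All 3 Mo-DC arrays lay above the other 33 arrays for 711 genes and below them for 501, whereas all 3 Mreg arrays lay above the other 33 for 9 genes and below for 13; 3 of the other groups are Mreg cultures too, which limits the Mreg counts. Mo-DC ranked first of 12 in mean level for Ccl17, Ccl24, Retnla, Mgl2, Irf4, Ccr7, Zbtb46 and Itgax, and last for Apoe, Il10, Csf1r, Csf3r and Il18. Of the 165 named genes, Mo-DC ranked first for 47 and last for 21. Mreg ranked first for 2 (Inpp5j and Ptger2), last for 4 (Irf4, Il4i1, Cd1d1 and Flt3), ninth for Apoe and eighth for Csf1r. The last place of Irf4 was at background (-7.89, against -7.86 in Mreg without IFN-γ), and Flt3 was near background. For Il4i1 the gap was small (-3.91, against -3.88 in another macrophage group). The macrophages given IL-4 (M2a), the other IL-4-treated group, shared several Mo-DC genes at lower levels: Retnla was 4.10 ± 1.37, Mgl2 3.29 ± 0.92 and Cish 2.45 ± 0.50 (SD, n = 3), while Ccl17 was -3.49 ± 2.02 and Ccr7 -3.91 ± 1.26, far below Mo-DC. M2a had IL-4 for the last 24 h only, after growth with M-CSF, and no IFN-γ. Time with IL-4, growth factor and IFN-γ thus all differ between M2a and Mo-DC. Among the monocytes, Chil3 was already 9.01 ± 0.05, beside 9.02 ± 0.07 in Mo-DC. Folr2 was -5.99 ± 1.19 in monocytes, 6.38 ± 0.14 in unstimulated M0 macrophages and 5.21 ± 0.22 in IFN-γ macrophages, so the Mreg level of 4.56 ± 0.33 was not the highest. Col18a1 was 5.37 ± 0.59 in Mreg without IFN-γ and 3.36 ± 0.86 in Mreg from unsorted cells. It was only 0.63 ± 0.03 in M0 macrophages and -1.35 ± 0.52 in IFN-γ macrophages. Both macrophage groups were grown in FCS alone and with a higher dose of M-CSF than the Mreg cultures. Serum and M-CSF dose thus differ together between these macrophages and Mreg, and their parts were not tested. Arg1 was 6.97 ± 0.84 in Mreg from unsorted cells and -1.96 ± 0.37 in IFN-γ macrophages. These levels of other groups are given as a description, with no test.

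**Figure D4:**
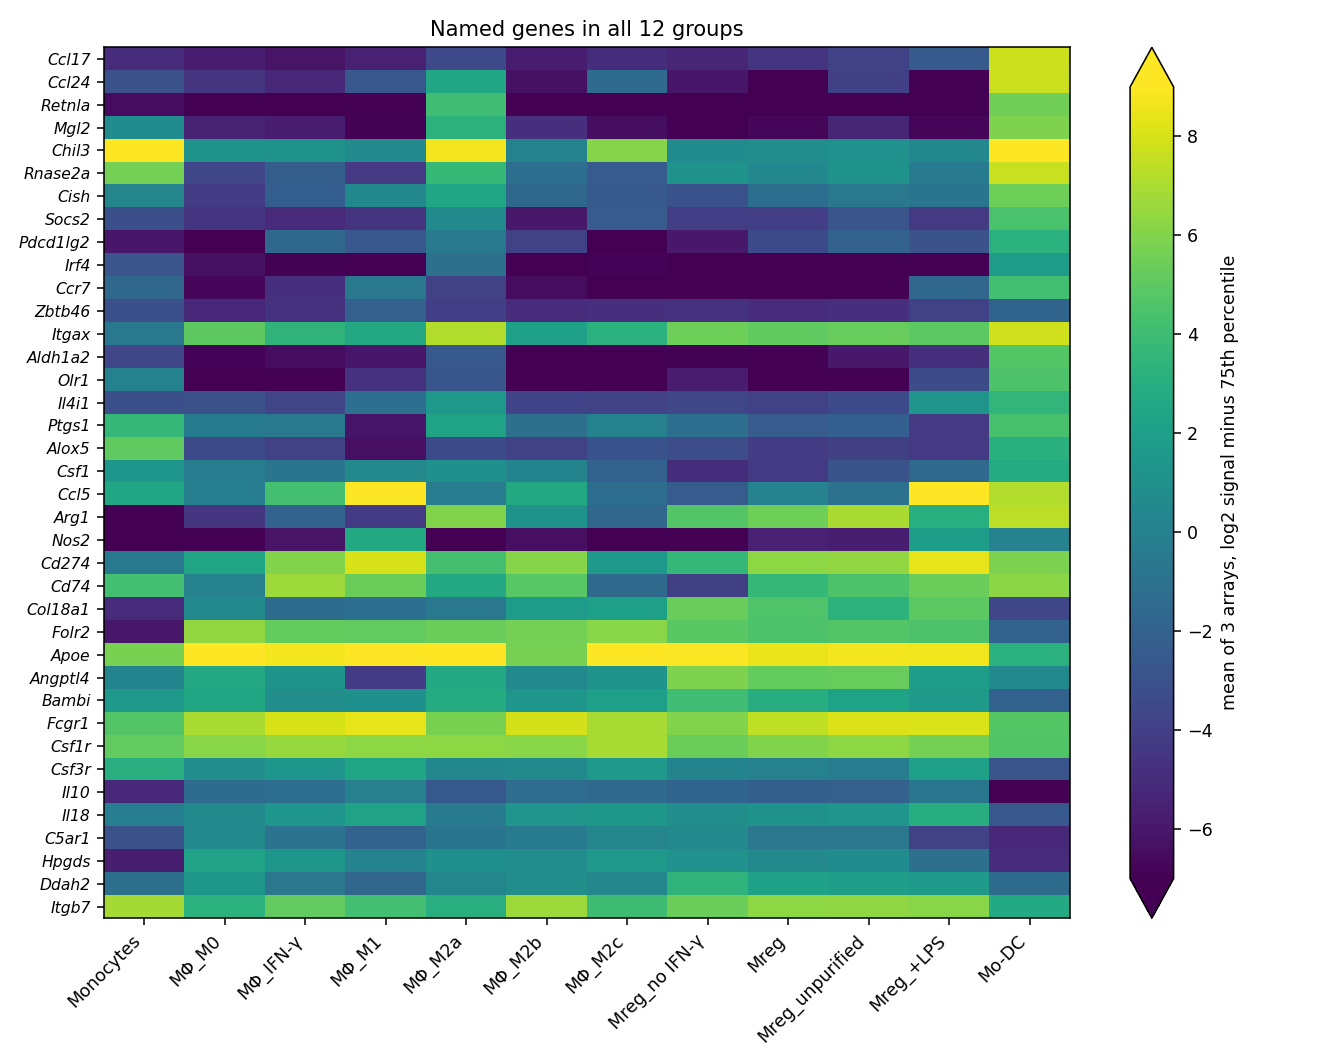
Mean level over 3 arrays of 38 genes in all 12 groups, as colour on a scale of log2 signal minus the array's 75th percentile. The Mo-DC column at right is the brightest for Ccl17, Ccl24, Irf4 and Ccr7 and the darkest for Apoe, Il10 and Itgb7, while Col18a1, Folr2 and Apoe are bright in Mreg and in the 3 other Mreg columns beside it.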

How the data were processed

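RNA (0.5 µg of total RNA, RIN above 6) was labelled with Cy3 and hybridised to Agilent 1-colour arrays of design 014868, per the labels' protocols. Spot intensities were background-corrected and processed by Feature Extraction 10.5.1.1 (protocol GE1_105_Jan09, build mm8), per the file headers. The authors' series table held log2 values that followed these intensities at r of 0.997 or more, with column medians of 4.33 to 4.38; its exact normalisation is not given in the sources used here, and it served as an alternative.

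Here the value was log2 of the processed intensity minus the array's 75th percentile. Control, uneven and outlying spots were left out, repeated spots averaged, 26478 probes well above background on 3 or more of 36 arrays kept, and the brightest probe taken per gene (17607 genes). Of 41174 probes, 24367 were named by accession, 6307 by symbol and 2425 by synonym through RefSeq names, and 8075 kept the name in the file. The model had 1 mean for each group and used all 36 arrays (limma 3.58.1 in R 4.3.3). It was run first on simulated arrays with independent noise and no slide or scan-day effect. There it recovered 66% of 100 genes shifted by log2 1 and 88% of 100 shifted by log2 2. Having no slide effect, the simulation cannot speak to slide and group falling together here. Figures were drawn with Python 3.11.15 and matplotlib 3.10.9. Genes were named by rule: the 8 largest measured differences and 6 largest bounds each way, up to 3 members each way of 28 gene lists and 10 marker lists, and 20 genes of set interest; further list members were named after their values were seen. A few genes so chosen are not reported here. The comparison, its members and the lists were chosen with earlier results of these data known. An adjusted p beside an "at least" fold tests the fitted difference, not the bound.

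Arrays of the same series number deviated together in Mreg and Mo-DC (correlations 0.217, 0.137 and 0.101 for series 1, 2 and 3). Arrays of different numbers correlated at -0.203 to 0.060. The numbers from the labels were therefore taken to pair the samples, and a block was fitted as an alternative. In every group, series 1 was scanned on a different day from series 2 and 3. Pairing and scan day thus cannot be told apart for series 1. Other alternatives were background correction, normalisation, filter, probe choice, slide, scan day, the 6 arrays alone, leaving out each array, and dim arrays set at their floor.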

Additional observations from a re-analysis of the deposited data

How the results depend on the processing

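The count of genes lower in Mreg was 3475 and fell to 2296 with normexp background correction (offset 50), while the calls with a fitted difference of at least 2-fold, bounds not applied, went from 3187 to 1703; 5021 of the 7620 calls were kept. That correction moved the median over all genes from 0.06 to -0.10. The counts under the other alternatives stayed within 1.5 times. Leaving out each array in turn gave 6527 to 7315 calls, 3530 to 3950 higher, 2997 to 3365 lower and 2900 to 3430 with at least 2-fold. With the replicate number as a block, 8559 genes were called, 4730 higher and 3829 lower (3287 with at least 2-fold), and no named gene changed its call; the lists whose counts moved are given with it above. Of the 3 alternatives chosen after seeing the data, the 6 arrays alone with that block and the earlier scan day alone (2 arrays a group), gave 5933 and 6422 calls; on the earlier scan day alone, 8 of the 161 called named genes had a fold over 1.5 times smaller, 7 one over 1.5 times larger, and 2 lost the call. The third set arrays not above background at their floor; of 13 named genes above background on only some arrays of a group, 4 had a fold over 1.5 times smaller. Of the called genes with several probes, 421 of 3026 had probes of both signs. With normexp the calls in lists of other cell types shrank: T and NK cells lower 9 to 3, mast cell, basophil and eosinophil 9 to 5, neutrophil 9 to 5, stromal and endothelial 6 to 2, and with probes above background on at least 18 arrays T and NK cells 1. Signal near background limits these dim genes, and the cause of each change was not tested.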
